A study of Mus musculus with 4 samples.

Results

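The genes described here are 42 interferon-stimulated genes measured in mouse spleen, 42 of the 23763 genes of the deposited expression table. They were chosen by symbol from a written list of genes that interferons induce. The rule uses no measured value, but the list was chosen with earlier results of these data known. Of the 42 genes, 30 are targets of type I interferon and 12 are targets that respond strongly to interferon gamma. All 42 were found in the table. All 42 also reached the mean of 1 scaled read count that was asked of a gene before testing, as did 16970 genes in all. RNA came from spleens of C57BL/6J mice at baseline, as the labels give it, 2 libraries labelled wild-type (WT) and 2 labelled KLHL3-KI, by its name a knock-in (called knock-in spleen below) at Klhl3, the gene of a ubiquitin ligase adaptor. The sources used here give neither the allele nor the age of the mice, nor whether each library is 1 animal. The p values therefore measure only the spread between these libraries. Values are scaled read counts, that is, reads multiplied by 1 factor per library, and 1 read was worth 0.0974 to 0.112. A log2 difference is KLHL3-KI minus WT on the scale log2(value + 1), with its standard error (SE).

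Interferons are secreted proteins that alert cells to infection. Type I interferons act through the receptor chains IFNAR1 and IFNAR2 and the kinases JAK1 and TYK2 to form a complex that holds STAT2 and IRF9 and binds the interferon-stimulated response element (ISRE). Interferon gamma acts through IFNGR1 and IFNGR2 with JAK1 and JAK2 and drives genes that carry the gamma-activated site (GAS). In the spleen, many of these targets are expressed at a low level without infection, and the groups of targets overlap, since guanylate-binding proteins also respond to type I interferon.

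The promoters of these genes carry letters of the binding sites just named, and the stretches below are shown because they belong to the genes that passed the test and to contrasting genes that did not. They were read from RefSeq promoter windows of build GRCm38.p6, each from 250 bases before to 50 bases after a start site; 31 of the 42 genes had a window. The ISRE was searched as GAAA, any 2 bases and GAAA again, and the GAS as TTC, any 3 bases and GAA, both on either strand and with overlapping matches counted. Each stretch is written 5′ to 3′ along the gene, with the matched letters in capitals. In Gbp5 the first run of capitals is the ISRE and the second the GAS, and a further GAS match upstream is not shown. In the Isg15 stretch 3 ISRE matches overlap, and Ifit1 has 2.
Isg15: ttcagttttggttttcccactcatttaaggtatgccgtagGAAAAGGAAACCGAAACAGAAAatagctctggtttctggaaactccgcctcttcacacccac
Rsad2: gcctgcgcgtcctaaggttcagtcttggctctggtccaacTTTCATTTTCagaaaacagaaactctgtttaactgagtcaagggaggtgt
Oas3: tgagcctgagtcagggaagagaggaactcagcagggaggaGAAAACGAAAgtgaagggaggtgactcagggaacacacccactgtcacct
Ifih1: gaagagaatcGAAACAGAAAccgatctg
Stat2: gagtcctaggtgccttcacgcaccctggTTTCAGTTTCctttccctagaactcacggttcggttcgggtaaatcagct
Ddx58: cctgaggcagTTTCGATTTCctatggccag
Ifi213: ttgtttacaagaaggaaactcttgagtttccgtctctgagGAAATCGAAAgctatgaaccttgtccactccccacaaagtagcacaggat
Ifit1: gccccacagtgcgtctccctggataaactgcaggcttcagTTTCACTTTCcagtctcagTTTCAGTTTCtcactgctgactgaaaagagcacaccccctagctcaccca
Gbp5: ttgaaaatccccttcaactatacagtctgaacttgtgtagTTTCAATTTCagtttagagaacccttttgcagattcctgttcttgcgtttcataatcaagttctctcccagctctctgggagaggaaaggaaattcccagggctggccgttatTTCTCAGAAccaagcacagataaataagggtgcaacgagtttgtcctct
The stretches of Isg15 (chr4:156200835-156200936), Rsad2 (chr12:26456523-26456612), Oas3 (chr5:120777685-120777774), Ifih1 (chr2:62646206-62646233), Ddx58 (chr4:40239804-40239833) and Ifi213 (chr1:173599296-173599385) lie on the minus strand. Those of Stat2 (chr10:128270248-128270325), Ifit1 (chr19:34640745-34640853) and Gbp5 (chr3:142496729-142496930) lie on the plus strand. The match of Ifih1 and that of Ddx58 lie just after the start site, inside the transcript.

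ISRE letters were found in 22 of the 31 genes with a window (71.0%), against 3.99% of all 27025 genes with a window. By class they were in 14 of 22 type I and in 8 of 9 gamma-type members. GAS letters were found in 4 of 9 gamma-type members (Gbp5, Gbp7, Igtp and Irgm2) and in 3 of 22 type I members, against 9.55% of all genes. All 4 members that rose and all 3 members with a window that fell held ISRE letters, as did 15 of the 24 that did not pass. The presence of these letters thus did not separate the directions. A match is a description of the sequence, not a measured binding site.

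**Figure D1:**
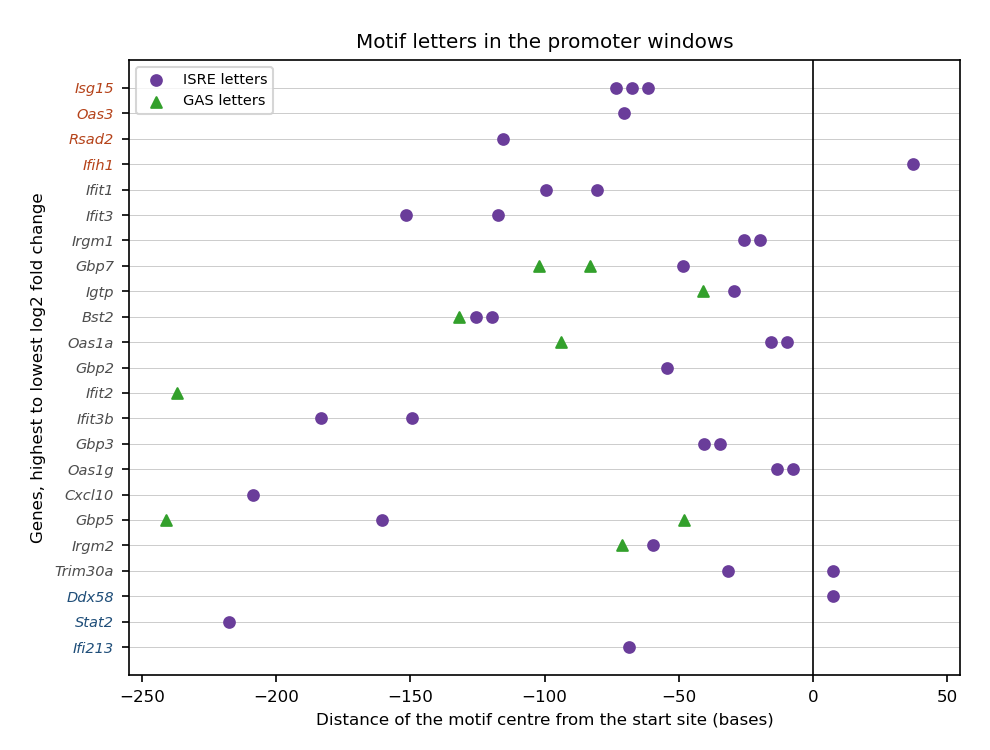
Position of ISRE (circles) and GAS (triangles) letters in the promoter windows, as the distance in bases of the motif centre from the start site, for the members with at least 1 match, ordered from the highest to the lowest log2 difference. Names in red are genes that rose, names in blue are genes that fell; ISRE letters are seen at both ends of the order.

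The 2 WT libraries stood apart from each other in these genes. All 42 members were higher in WT replicate 1 than in WT replicate 2, against 51.8% of all tested genes. The ratio of the WT replicates ran from 1.04 for Mx1 to 2.39 for Ifi44, with a median of 1.39 over the members. WT replicate 1 had the highest value of all 4 libraries for 34 of the 42 members, against 23.1% of all genes. The count was also 42 with equal total reads, with median-ratio rescaling and with haemoglobin, immunoglobulin and mitochondrial genes removed. The knock-in replicates showed no such order: 21 of 42 members were higher in replicate 1, against 45.6% of all genes. Summed over the 42 members, the values were 1898 and 1441 in WT replicates 1 and 2, and 1723 and 1826 in knock-in replicates 1 and 2. The knock-in libraries thus lay between the WT libraries in this sum. The gamma-type members did so too, with sums of 775 and 569 in WT and 594 and 607 in knock-in replicates 1 and 2. The type I members did not. Their sums were 1124 and 872 in WT and 1129 and 1219 in the knock-in libraries, both above both WT sums. Below, members are also given without a WT library where leaving it out changed a call. Others moved with no change of call. Ifit1, for example, had a log2 difference of 0.75 without WT replicate 1 and -0.19 without WT replicate 2. For Zbp1 these values were -0.04 and -0.55.

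**Figure D2:**
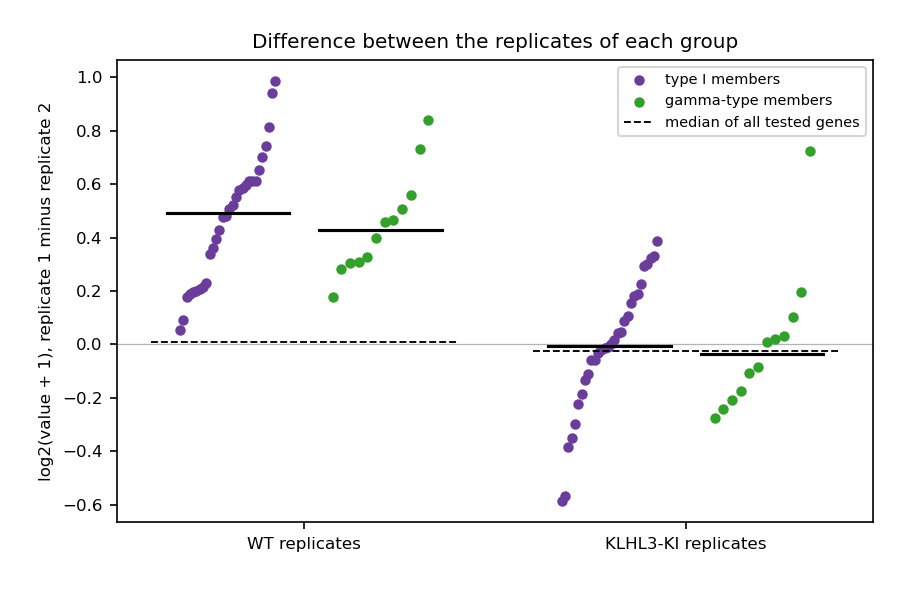
Difference of log2(value + 1) between replicate 1 and replicate 2 for each member (points; purple type I, green gamma-type), with the median of each class (solid lines) and the median of all tested genes (dashed line). In WT all 42 points lie above 0, while in KLHL3-KI they spread to both sides of it.

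Neither class of interferon targets moved as a block between KLHL3-KI and WT spleen. The type I members Isg15, Rsad2, Oas3 and Ifih1 rose, while the type I members Stat2, Ddx58 and Ifi213 and the gamma-type member Gbp4 fell. The other 34 members did not pass. The test was limma, with Benjamini-Hochberg adjusted p under 0.05 over all 16970 genes. The 4 rises are 9.52% of the members, against 15.2% of all tested genes, and the 4 falls are also 9.52%, against 7.56% of all tested genes. Together they are 8 of 42 members, against 22.8% of all tested genes called in either direction. Of the members 7 lay higher in both knock-in libraries than in both WT libraries (32.8% of all tested genes did), 11 lay lower (31.9% did) and 24 overlapped. Of the 30 type I members 4 rose and 3 fell, and their median log2 difference was 0.02. Of the 12 gamma-type members 0 rose and 1 fell, with a median of -0.16 (by unadjusted limma p under 0.05, 0 were higher and 2 lower; edgeR and DESeq2 also called 0 rises). The median over all tested genes was -0.01. Without WT replicate 1 the medians were 0.26 for type I and 0.04 for gamma-type members, and without WT replicate 2 they were -0.23 and -0.36. The sign of both medians thus turned with the WT library used.
A fit that leaves out a library has 1 library in that group, which is assumed to vary like the other group. Without WT replicate 1, 7 members rose (16.7%, against 10.1% of all genes) and 0 fell (against 2.78%). Without WT replicate 2, 3 rose (7.14%, against 8.17%) and 4 fell (9.52%, against 1.57%). With equal total reads 3 rose (7.14% of the members, against 11.3% of all genes) and 9 fell (21.4%, against 18.4%). With haemoglobin, immunoglobulin and mitochondrial genes removed the counts were also 3 and 9, against rises in 12.5% and falls in 17.7% of all genes. The members that fell in addition under both were Mx2, Trim30a, Gbp5, Gbp6 and Irgm2. After quantile normalization 3 rose (7.14%, against 12% of all genes) and 6 fell (14.3%, against 14.0% of all genes). The median of all genes was -0.16 with equal total reads, -0.14 with those genes removed and -0.10 after quantile normalization. In spleen RNA as a whole, fewer cells of a type and less RNA per cell cannot be told apart.

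**Figure D3:**
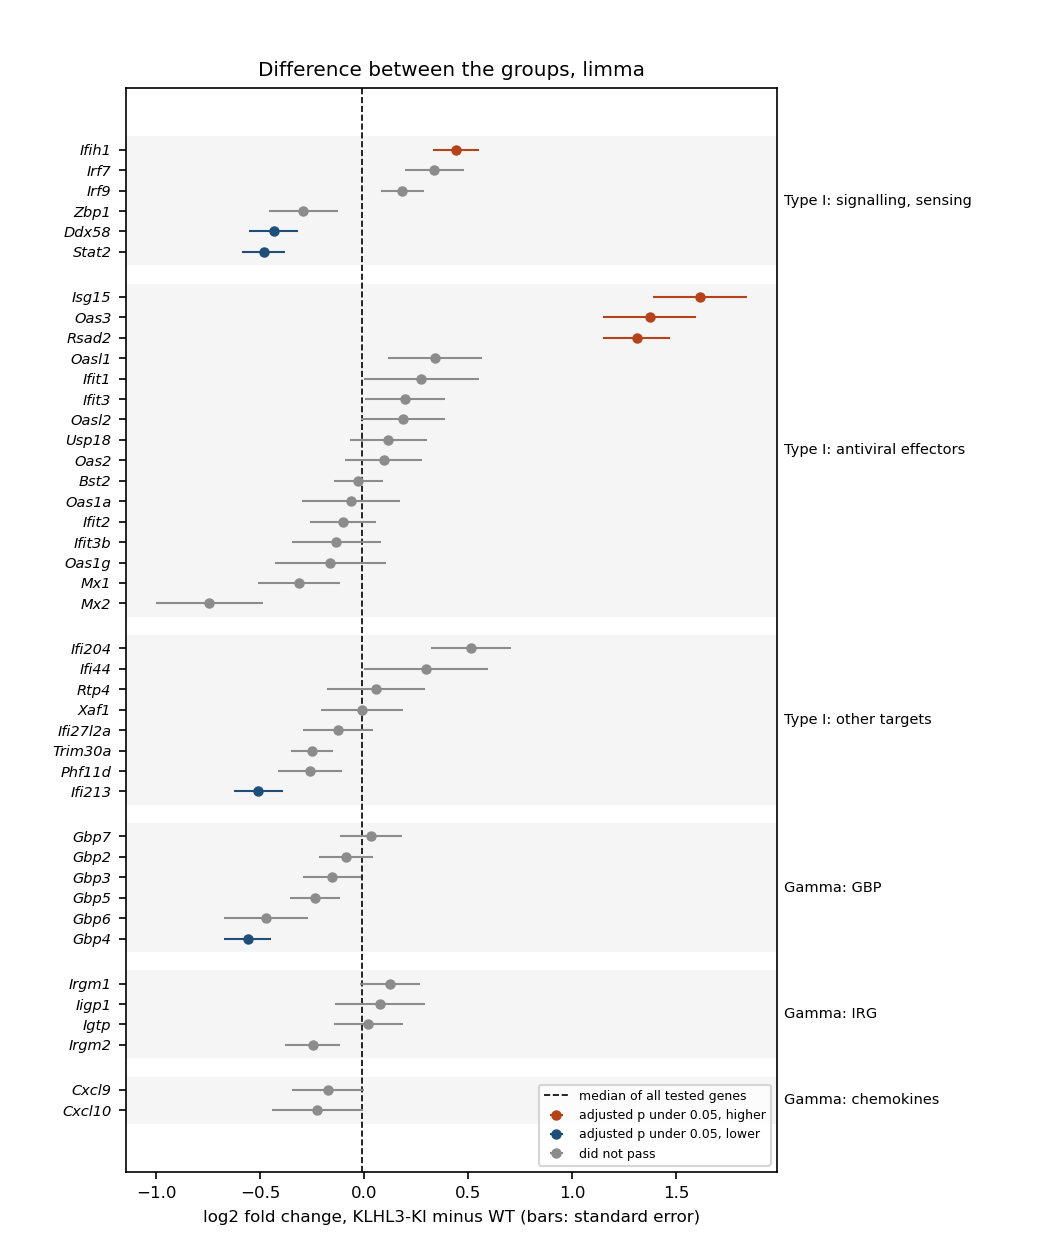
Log2 fold change (KLHL3-KI minus WT) of the 42 members with the standard error as bars, by role; red and blue points passed the limma test and the dashed line is the median of all tested genes. Isg15, Oas3 and Rsad2 lie between 1.31 and 1.61, apart from the other members, which lie between -0.74 and 0.51.

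Among the 16 antiviral effectors, 3 rose and 0 fell by limma, edgeR or DESeq2. With limma the rises were 18.8% of them, against 15.2% of all tested genes, and the falls 0%, against 7.56%. Mx2 was lower at an unadjusted limma p of 0.0171. Isg15 (ENSMUSG00000035692) encodes a ubiquitin-like protein that is attached to other proteins. It was measured at 16.1 and 9.24 in WT replicates 1 and 2 and at 34.5 and 45.3 in knock-in replicates 1 and 2, from 144, 89, 313 and 465 reads. Both KLHL3-KI values were thus above both WT values, and the mean was 3.15 times as high, a log2 difference of 1.61 (SE 0.23, limma adjusted p = 0.000901).
Rsad2 (ENSMUSG00000020641) encodes viperin, an enzyme that makes a nucleotide analogue that stops viral RNA synthesis. Its values were 137 and 98.4 in WT and 257 and 327 in the knock-in libraries. The groups did not overlap and the mean was 2.48 times as high (log2 difference 1.31, SE 0.16, limma adjusted p = 0.000385). Oas3 (ENSMUSG00000032661) encodes a sensor of double-stranded RNA that makes the messenger for RNase L. It was at 25.7 and 16.5 in WT and at 44.7 and 67.6 in knock-in spleen. Knock-in replicate 2 was the highest library for each of the 3 genes, and WT replicate 2 the lowest. The Oas3 mean was 2.66 times as high (log2 difference 1.37, SE 0.22, limma adjusted p = 0.00214). Isg15 and Rsad2 passed under all 17 alternative settings; Oas3 passed under 16 and missed the threshold with a robust variance model (adjusted p = 0.0552).

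The 13 other antiviral effectors did not pass, with log2 differences from -0.74 to 0.34. Their summed value was 184 and 129 in WT and 158 and 160 in the knock-in libraries, between the WT values. This sum leaves out the genes that rose in these same data. All 16 antiviral effectors summed to 363 and 254 in WT and to 494 and 600 in the knock-in libraries, above both WT values. The Ifit genes, whose proteins bind foreign RNA ends, were among them. Ifit1 was at 12.9 and 6.23 in WT and at 12.6 and 9.84 in knock-in spleen, so that the WT libraries enclosed the knock-in libraries. Ifit3 behaved in the same way, with 23.5 and 15.0 in WT and 23.2 and 20.3 in knock-in spleen. Ifit2 and Ifit3b also overlapped between the groups. Ifit3 and Ifit3b are close copies of each other, as are Oas1a and Oas1g, so the split of reads within each pair is uncertain.
The other oligoadenylate synthetase genes did not follow Oas3. Oas2 was at 8.28 and 6.23 in WT and at 7.71 and 7.79 in knock-in spleen (log2 difference 0.10, SE 0.19). Oas1a, Oas1g, Oasl1 and Oasl2 had log2 differences from -0.16 to 0.34 and overlapping groups. Usp18, the protease that removes ISG15 from proteins and damps the type I receptor, was at 12.98 and 9.03 in WT and at 11.8 and 11.9 in knock-in spleen, unlike Isg15 itself. The difference between members was not tested.
The Mx genes encode dynamin-like GTPases that block viruses, and the Mx1 allele of most laboratory strains, C57BL/6 among them, is known to be defective. Mx2 was at 5.59 and 3.32 in WT and at 1.87 and 2.53 in knock-in spleen, a log2 difference of -0.74 (SE 0.26), and did not pass (limma adjusted p = 0.0665). It rested on 17 to 50 reads per library, and passed in 4 of the 16 alternatives that tested it, with adjusted p from 0.0255 to 0.361. Mx1 was at 6.94 and 6.64 in WT and at 6.17 and 4.48 in knock-in spleen (log2 difference -0.31, SE 0.20). Bst2, or tetherin, which holds budding virus at the cell surface, was at 35.8 and 31.1 in WT and at 32.4 and 33.1 in knock-in spleen, with the KLHL3-KI values inside the WT range.

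**Figure D4:**
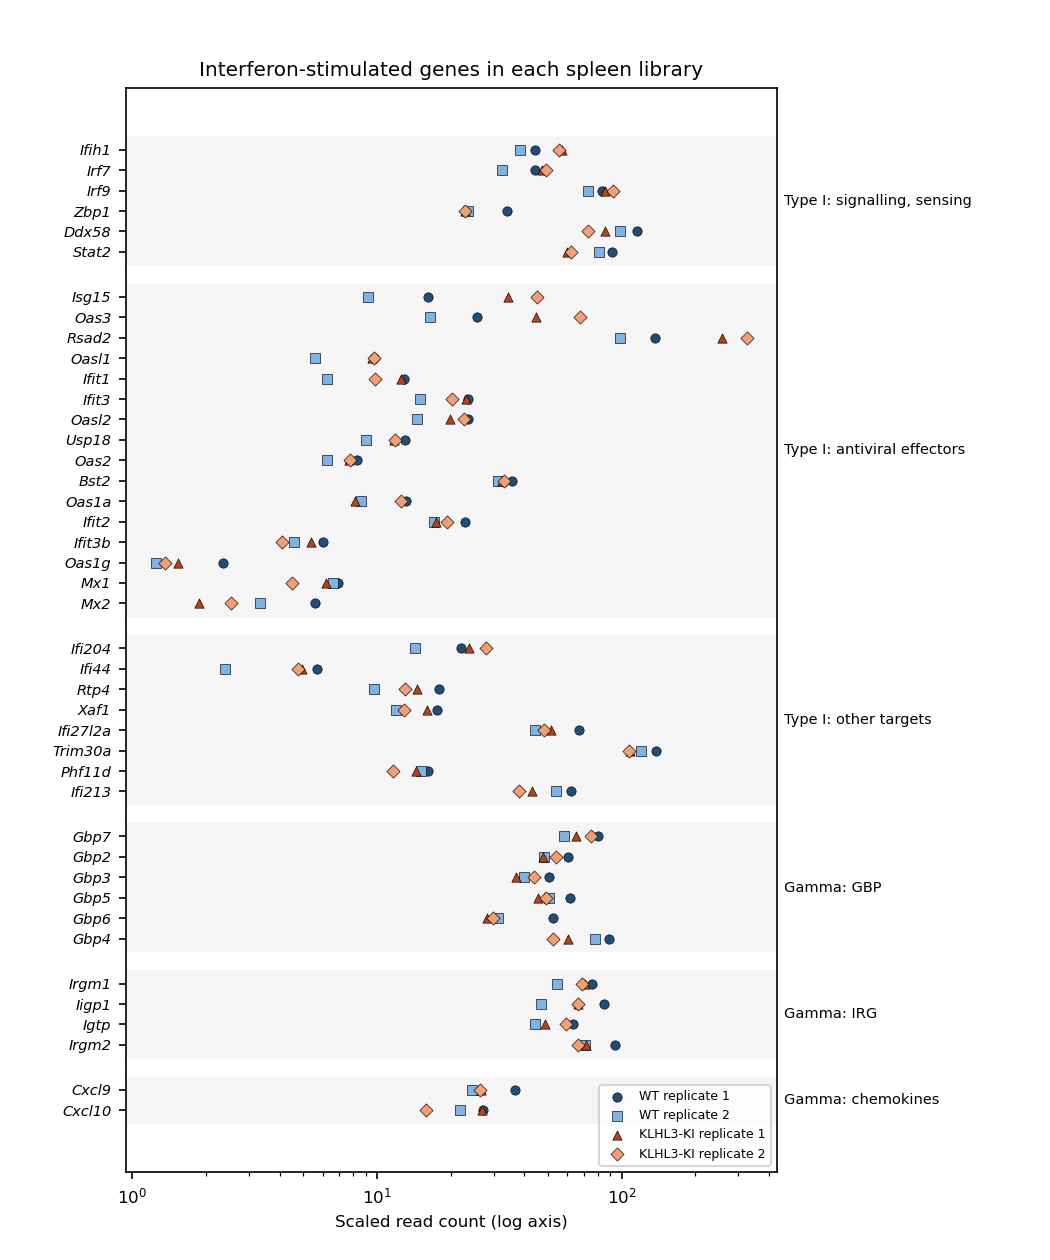
Scaled read count (log axis) of each member in the 4 libraries, by role: dark and light blue are WT replicates 1 and 2, dark and light orange knock-in replicates 1 and 2. For most members the WT replicate 1 point lies furthest to the right; for Isg15, Oas3 and Rsad2 both KLHL3-KI points lie to the right of both WT points.

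Of the 6 signalling and sensing members 1 rose (16.7%, against 15.2% of all tested genes) and 2 fell (33.3%, against 7.56%). The groups overlapped for none of the 6: Ifih1, Irf7 and Irf9 lay higher and Stat2, Ddx58 and Zbp1 lower in both knock-in libraries. Of all tested genes, 32.8% lay higher and 31.9% lower in the same sense, so a lack of overlap was common. Ifih1 (ENSMUSG00000026896) encodes MDA5, a cytoplasmic sensor of long double-stranded RNA. It was at 44.3 and 38.4 in WT and at 57.2 and 55.5 in knock-in spleen, a rise of 0.44 on the log2 scale (SE 0.11, limma adjusted p = 0.0189). Ddx58 (ENSMUSG00000040296) encodes RIG-I, the sister sensor that reads short RNA ends. It went the other way, with 116 and 98.8 in WT and 85.5 and 72.9 in knock-in spleen, and fell by 0.43 (SE 0.12, limma adjusted p = 0.0259).
Stat2 (ENSMUSG00000040033), which gives the type I complex its activation domain, was at 91.4 and 80.6 in WT and at 59.9 and 62.4 in knock-in spleen. Both knock-in libraries lay well below both WT libraries, and the gene fell by 0.48 (SE 0.10, limma adjusted p = 0.00874). Its partner Irf9, which binds the DNA, was at 83.3 and 72.97 in WT and at 85.4 and 92.2 in knock-in spleen and did not pass (log2 difference 0.18, SE 0.10, limma adjusted p = 0.242). Irf7, which amplifies type I interferon production, was at 44.2 and 32.6 in WT and at 47.2 and 49.3 in knock-in spleen (log2 difference 0.34, SE 0.14, limma adjusted p = 0.124). Zbp1, a sensor of left-handed nucleic acid that can start cell death, was at 33.9 and 23.6 in WT and at 22.9 in both knock-in libraries, and did not pass.
Without WT replicate 1 Stat2 had a log2 difference of -0.39 and Ddx58 one of -0.32, and neither passed (limma adjusted p = 0.0911 and 0.194), while Irf7 was at 0.55 and passed (0.0442). Without WT replicate 2 Ifih1 was at 0.34 and did not pass (0.161). In the same fit Ddx58 did not pass either (0.0608), although its log2 difference of -0.55 was larger in size than with all libraries. Ddx58 was at -0.32 without knock-in replicate 2 (0.110). With equal total reads Ifih1 was at 0.27 and did not pass (0.0797). In all, Stat2 passed in 15, Ddx58 in 13 and Ifih1 in 12 of the 17 alternatives.

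Of the 8 other type I targets, 1 fell (12.5%, against 7.56% of all tested genes) and 0 rose (against 15.2%). Ifi213 (ENSMUSG00000073491), of the family of interferon-inducible HIN domain genes that bind DNA, was at 62.4 and 54.0 in WT and at 43.2 and 37.98 in knock-in spleen. It fell by 0.51 (SE 0.12, limma adjusted p = 0.0131), and passed in 15 of the 17 alternatives; without WT replicate 1 it was at -0.41 and did not pass (limma adjusted p = 0.125). Its relative Ifi204 had the opposite sign, with 22.2 and 14.3 in WT and 23.9 and 28.0 in knock-in spleen (log2 difference 0.51, SE 0.19), and did not pass (limma adjusted p = 0.0850). It was at 0.81 without WT replicate 1 and at 0.62 without knock-in replicate 1, and passed in both (limma adjusted p = 0.0308 and 0.0261). Genes of this family are similar in sequence, so reads may be shared between them.
Trim30a, which restrains Toll-like receptor signalling, was at 139 and 120 in WT and at 109 and 107 in knock-in spleen and did not pass (log2 difference -0.25, SE 0.10, limma adjusted p = 0.109). Both knock-in values lay below both WT values. The gene passed with equal total reads. Phf11d was also lower in both knock-in libraries without passing. Ifi44, Xaf1, Rtp4 and Ifi27l2a had overlapping groups and log2 differences from -0.13 to 0.30, and in each WT replicate 1 was the highest library.

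Among the gamma-type members, 1 of the 6 guanylate-binding protein genes fell (16.7%, against 7.56% of all tested genes) and 0 rose (against 15.2%). The median log2 difference of the 6 was -0.20. These large GTPases coat and break open vacuoles that hold microbes. Gbp4 (ENSMUSG00000079363) was at 88.6 and 78.3 in WT and at 60.2 and 52.4 in knock-in spleen, and fell by 0.56 (SE 0.11, limma adjusted p = 0.00650). It passed in 15 of the 17 alternatives, and without WT replicate 1 it was at -0.47 and did not (limma adjusted p = 0.0794). Gbp6 was at 52.5 and 31.2 in WT and at 28.1 and 29.8 in knock-in spleen, with WT replicate 1 well above the other 3 libraries (log2 difference -0.47, SE 0.20, limma adjusted p = 0.127). Leaving out WT replicate 1 gave a log2 difference of -0.11, and leaving out WT replicate 2 gave -0.84, which passed (limma adjusted p = 0.0142). Gbp5 was at 61.5 and 50.4 in WT and at 45.4 and 49.0 in knock-in spleen and did not pass (log2 difference -0.24, SE 0.12). Gbp2, Gbp3 and Gbp7 overlapped between the groups, with log2 differences from -0.15 to 0.03. Members of this family share sequence, so their single values are uncertain.
The immunity-related GTPases act with them on such vacuoles, and 0 of the 4 passed with limma, edgeR or DESeq2, with 0 at an unadjusted limma p under 0.05. Iigp1 was at 84.5 and 46.7 in WT and at 66.6 and 66.1 in knock-in spleen, with both knock-in libraries between the WT libraries, and its log2 difference was 0.08 with all libraries. It was 0.50 and passed without WT replicate 1 (limma adjusted p = 0.0481), and -0.34 without WT replicate 2 (0.139). Igtp, at 63.3 and 44.2 in WT and 48.7 and 59.1 in knock-in spleen, and Irgm1, at 75.5 and 54.4 in WT and 70.7 and 69.1 in knock-in spleen, also lay inside the WT range. Irgm2 was at 94.1 and 71.1 in WT and at 71.3 and 66.3 in knock-in spleen (log2 difference -0.25, SE 0.13, limma adjusted p = 0.218).
Cxcl9 and Cxcl10 encode chemokines that draw activated T cells and NK cells through the receptor CXCR3. Cxcl9 was at 36.6 and 24.5 in WT and at 26.7 and 26.3 in knock-in spleen (log2 difference -0.17, SE 0.17). Cxcl10 was at 27.2 and 21.8 in WT and at 26.9 and 15.9 in knock-in spleen (log2 difference -0.23, SE 0.22), and here the knock-in libraries enclosed WT replicate 2. Neither passed. The Cxcl10 value turned with the knock-in library: it was -0.59 and passed without knock-in replicate 1 (limma adjusted p = 0.0173), and 0.14 without knock-in replicate 2 (0.666). Cxcl9 passed in 0 of 17 alternatives.

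Levels of different genes were compared only per kilobase of annotated exon, as the mean scaled read count of a group. In WT spleen Ifi27l2a had the highest level of the 42 members at 120 per kilobase, followed by Bst2 at 37.1, Trim30a at 31.4 and Rsad2 at 27.2, while Isg15 was eighth at 16.8. In knock-in spleen Ifi27l2a was at 108 per kilobase and the next were Rsad2 at 67.3 and Isg15 at 52.7. Oas1g, Mx2 and Ifi44 were the lowest members in both groups, at 0.768, 1.23 and 0.660 per kilobase in WT and 0.621, 0.609 and 0.794 in knock-in spleen.

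The pathway around these members was read from a list of other interferon genes, of which 64 were in the table and 62 were tested. Of the 62, 7 rose (11.3%, against 15.2% of all tested genes) and 16 fell (25.8%, against 7.56%). Interferon gamma itself (Ifng) was under the minimum level, with 6 and 8 reads in the WT and 1 and 5 reads in the knock-in libraries, and was not tested. None of the 4 receptor chains passed: Ifnar1, Ifnar2, Ifngr1 and Ifngr2 had log2 differences of -0.20, 0.18, 0.02 and -0.09. Ifnar1 passed in 3 of 17 alternatives, all of which lower the median of all genes: it was at -0.37 with equal total reads (limma adjusted p = 0.0136), at -0.34 after removal of haemoglobin, immunoglobulin and mitochondrial genes (0.0155) and at -0.33 after quantile normalization (0.0232). Among the kinases Tyk2 fell by 0.38 (SE 0.10, limma adjusted p = 0.0263), while Jak1 and Jak2 did not pass. Tyk2 passed in 12 of 17 alternatives, and did not with DESeq2 (adjusted p = 0.0571) or without a variance trend (0.0984).
Among the transcription factors of the list 2 fell. Irf8, a factor of myeloid and B cells, fell by 0.45 (SE 0.09, limma adjusted p = 0.00764) and Irf5, which drives inflammatory cytokines, by 0.44 (SE 0.10, limma adjusted p = 0.0140); without WT replicate 2 they were at -0.38 and -0.34 and did not pass (0.0896 and 0.144). Irf1, an early interferon target that is itself a transcription factor, was at 167 and 136 in WT and at 129 and 105 in knock-in spleen and did not pass (log2 difference -0.37, SE 0.13, limma adjusted p = 0.0735). It passed in 5 of 17 alternatives, among them equal total reads (-0.54, limma adjusted p = 0.0137) and the fit without knock-in replicate 1 (-0.52, 0.00621), and it was at -0.22 without WT replicate 1 and without knock-in replicate 2.
Of the 12 sensors and adaptors 3 fell, namely the kinase Ikbke by 0.69, the DNA receptor Tlr9 by 0.52 and the adaptor Ticam1 by 0.49, and 0 rose. Of the 4 brakes Socs3, which inhibits cytokine receptor kinases, rose by 0.84 (SE 0.13, limma adjusted p = 0.00134). Of 33 other tested targets 6 rose and 10 fell. Cmpk2, a nucleotide kinase gene that neighbours Rsad2, was at 29.8 and 19.1 in WT and at 57.2 and 64.2 in knock-in spleen (log2 difference 1.31, SE 0.18, limma adjusted p = 0.000793), beside 1.31 for Rsad2. The exonuclease gene Isg20 was at 52.2 and 47.1 in WT and at 103 and 112 in knock-in spleen (log2 difference 1.10, SE 0.10, limma adjusted p = 5.69e-05). The membrane genes Ifitm2 and Ifitm1 rose by 0.78 and 0.60. In the other direction Samd9l fell by 0.65, Nlrc5, the transactivator of MHC class I genes, by 0.57, the peptide transporter Tap1 by 0.53 and the nucleotide hydrolase Samhd1 by 0.45. Several of these calls were lost in fits without 1 library, mostly with a log2 difference near that of all libraries. Without WT replicate 1 Tyk2 was at -0.42, Tlr9 at -0.63, Ticam1 at -0.48, Samd9l at -0.57, Samhd1 at -0.40 and Ifitm1 at 0.57, and none of these 6 passed (limma adjusted p = 0.0921, 0.0506, 0.120, 0.0659, 0.0645 and 0.0673). Without WT replicate 2 Tyk2 was at -0.33, Ikbke at -0.59, Tlr9 at -0.42, Ticam1 at -0.51 and Ifitm1 at 0.63, and none of these 5 passed (limma adjusted p = 0.179, 0.0606, 0.165, 0.118 and 0.0598). Tyk2 was at -0.31 without knock-in replicate 1 (0.0890), and without knock-in replicate 2 Tlr9 was at -0.37 and Ticam1 at -0.38 (0.0627 and 0.103). With DESeq2 Ticam1 did not pass (adjusted p = 0.0638), nor did it with limma without a variance trend (adjusted p = 0.0656). Irf5, Irf8, Tlr9, Samd9l and Samhd1 did not pass without a variance trend either.

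Depth was 8535483 and 8975415 reads in WT and 9586677 and 10933023 in knock-in libraries. The Klhl3 transcript was at 3.02 and 4.67 in WT and at 2.53 and 1.36 in knock-in spleen and did not pass (limma adjusted p = 0.0895). Markers of some of the cells that a spleen can hold differed between the groups, and those of others did not pass. Of all tested genes 15.2% rose and 7.56% fell. All 5 erythroid precursor markers rose, with a summed value of 8681 to 9896 in WT and 16714 to 17141 in knock-in spleen, and all 5 neutrophil markers rose, from 52.1 to 109 in WT to 1019 to 1360. All 5 T cell markers fell (246 to 285 in WT, 145 to 168 in KLHL3-KI) and 4 of 5 B cell markers fell (2151 to 2192 and 1260 to 1690). None of the 5 plasmacytoid dendritic cell markers passed (70.3 to 72.97 and 53.4 to 76.8), and of the 5 monocyte markers 3 rose and 1 fell (815 to 904 and 922 to 1068). Of NK cell markers 2 of 4 fell (60.3 to 62.7 and 47.6 to 48.5), of conventional dendritic cell markers 1 of 4 fell (139 to 147 and 123 to 138), of red pulp macrophage markers 1 of 4 rose (1145 to 1282 and 1575 to 1732), and of 3 endothelial markers 0 passed (550 to 553 and 417 to 493). No marker of these 10 lists was at 0 in any library. Between the WT libraries, every marker of T cells, monocytes, neutrophils, erythroid precursors and red pulp macrophages was higher in replicate 1. So were 3 of 4 conventional dendritic cell, 2 of 3 endothelial and 2 of 4 NK cell markers. Of plasmacytoid dendritic cell markers 2 of 5 were, and of B cell markers 1 of 5. Of all tested genes 51.8% were. The part of these cell types in the values of the interferon-stimulated genes was not tested.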

How the data were processed

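Libraries were made with ribosomal RNA depletion and a directional kit, per the labels' protocols. Per the submitters' processing notes, Trimmomatic 0.38, Bowtie2, RSEM 1.3.0 and edgeR were used with build GRCm39, in roles that are not stated. The deposited values are a normalized signal per gene made by the authors: in each library 100% of values are whole multiples, within 0.001, of what 1 read is worth, so whole reads were recovered by division. On those reads edgeR called 3888 genes, against 3866 with limma. Columns were matched to samples by library name and groups taken from sample titles. Symbols and exon lengths came from GENCODE annotation of build GRCm38, and 99.3% of identifiers had a symbol. Values were compared as log2(value + 1) with limma 3.58.1 in R 4.3.3, with a variance trend, two-sided, on genes with a mean value of 1 or more. An exact test on these groups cannot go below p = 0.333. Alternatives were edgeR 4.0.16 (quasi-likelihood) and DESeq2 1.42.0 on the recovered reads, pseudocounts of 0.1 and 5, other filters, scalings and variance models, a replicate block and leaving out each library. Members with an adjusted p under 0.05 and no overlap between groups are given with all values. So are the member with the highest mean scaled read count, not per kilobase, and the 2 lowest-p members of each role group. From the pathway list the text names Irf1, Ifng, the receptor chains and up to 4 called genes per direction and class. Another gene that the rule names is not reported here. Any further member was picked with its values in view. The members and lists were chosen with earlier results of these data known. The scripts were tested on simulated data.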

Additional observations from a re-analysis of the deposited data

How the results depend on the processing

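The counts of members that rose and fell (4 and 4) were made of the same genes with edgeR, DESeq2, both other pseudocounts, both other filters and median-ratio rescaling. The number that fell was 9 with equal total reads and 9 after removing haemoglobin, immunoglobulin and mitochondrial genes, where the median of all genes was lower too, and 0 without a variance trend. Over all genes, falls were 18.4%, 17.7% and 3.88% in these fits, in that order, against 7.56%. Leaving out 1 library gave 3 to 7 rises and 0 to 5 falls, with rises in 8.17% to 17.1% and falls in 1.57% to 9.59% of all genes; the 7 rises and the 0 falls came without WT replicate 1. The cause was not tested. The type I median log2 fold change ran from -0.23 to 0.26 and the gamma-type median from -0.36 to 0.04 without 1 library. Replicate numbers gave no pairing: the correlation across genes of the replicate differences of the groups was -0.03. With a replicate block 5 members rose (11.9%, against 16% of all genes) and 5 fell (11.9%, against 8.34%), the additions being Ifi204 and Gbp6. No member reversed a call under any of the 17 alternatives.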
